A study of Mus musculus with 14 samples.

Results

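The data described here are 5 of the 14 RNA-seq libraries of a study of E-mu-Myc B-cell lymphoma, a mouse model in which an immunoglobulin heavy chain enhancer drives a Myc transgene in B lineage cells. The lymphomas are 2 libraries of tumour taken from the lymph node of wild-type C57BL/6 hosts that had been injected with cells of line #506. From day 7 the hosts received L-asparaginase (ASNase, the enzyme that hydrolyses circulating asparagine; 1 library) or vehicle (NaCl 0.9%; 1 library), until the disease endpoint. They are set against 3 untreated cell lines, #506, #549 and #688, each named for a different E-mu-MycTg/+ mouse and cultured for 24 h in DMEM-GlutaMAX with serum, 2-mercaptoethanol and 0.37 mM L-asparagine (1 library each, genotype WT in the labels). The other 9 lines of the series, grown the same way, serve as a second comparison. The hosts keep their own immune, vessel and stromal cells, so each lymphoma library holds RNA of host cells as well as of tumour cells, whereas the lines are cultures of malignant B cells.

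The 3 lines were chosen because their RNA shares the leading heavy chain segment of the lymphomas, so that traits of the line weigh less in the comparison. Ighv5-17 (chr12:113859149-113859670, mm10) had 395 CPM (counts scaled to a common library total) in the ASNase lymphoma and 334 CPM in the vehicle lymphoma, against 375, 207 and 389 CPM in lines 506, 549 and 688, and Igkv9-120 led the kappa segments of all 5 libraries. The lines were chosen by these values, and the stress genes were sorted by their CPM in the 3 lines, so both are a description only. Line 549 stood apart in one respect: it also held Ighv13-2 at 81.6 CPM, 25.7% of its heavy chain segment counts, and Igkv5-39 at 406 CPM, which were at or under 0.65 CPM in the other 4 libraries. Each line is named for its own mouse, yet Spearman rank correlation over 16186 genes was 0.986 to 0.991 among the 3 lines, against at most 0.977 for any other pair of lines, and how far the 3 lines are independent was not tested. The lymphomas had rank correlations of 0.898 to 0.902 with the 3 lines and of 0.981 with each other.

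Cells answer shortages and damage with transcriptional programmes that each rest on few regulators. Shortage of an amino acid activates the kinase GCN2 (Eif2ak4), which phosphorylates eIF2 and favours translation of the factor ATF4. ATF4 then induces amino acid transporters, synthetases and Asns, the enzyme that makes asparagine. Unfolded proteins in the endoplasmic reticulum act through PERK, IRE1 and ATF6, misfolded proteins in the cytosol through HSF1, low oxygen through HIF1, oxidants through NRF2, DNA damage through p53, and low sterol through SREBP2.

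The stress genes are the 529 distinct genes of 16 lists of such programmes that were found in the table. A stress gene was called a tumour-cell gene when it had 20 CPM or more in all 3 lines (313 genes), and a host-cell gene when it was under 0.5 CPM in all 3 (80 genes). The remaining 136 lay between. Among all genes 6581 passed the tumour-cell threshold, and 34227 of 46959 entries met the host-cell threshold, of which 10743 had a count in a lymphoma. Nearest the upper threshold were Ercc5, Ppp1r15a and Atg9b inside and Cdc25c, Bbc3 and Chek2 outside, with lowest line values of 20.5, 21.0, 21.0, 19.98, 19.8 and 19.7 CPM. Nearest the lower threshold were Gatsl3, Gbp2 and Egr2 inside, with highest line values of 0.457, 0.457 and 0.426 CPM, and Mx2, Cdkn1a and Xaf1 outside, with 0.542, 0.619 and 0.658 CPM. The direction of a host-cell gene is fixed by its threshold, so these genes are described without a test.

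Total counts were 25690935 in the ASNase lymphoma and 27715832 in the vehicle lymphoma, and 26352085 to 32070893 in the lines. Host-cell genes took 1.60% of counts in the ASNase lymphoma and 1.32% in the vehicle lymphoma, against 0.0452% to 0.0622% in the 3 lines. The threshold fixes the low share of the 3 lines. In the other 9 lines, which hold no host tissue, the share was 0.0925% (line 115) to 1.41% (line 504), so it does not measure host RNA. Pan-B genes, a check for B lineage RNA, were present in both lymphomas but do not separate tumour from host B cells. Of 17 tumour-cell genes of that list 8 were higher and 1 lower than in the 3 lines (median log2 fold change 0.39). With TMM scaling on tumour-cell genes 10 were higher and 0 lower (0.76). A fit of all 14 libraries called 0 in either direction, as did the comparison with the other 9 lines. Without the vehicle lymphoma the median was 0.19. Pax5, a factor of B cell identity, had 515 CPM in the ASNase lymphoma and 458 CPM in the vehicle lymphoma, against 543, 512 and 522 CPM in lines 506, 549 and 688. In bulk RNA, fewer cells of a type and less RNA per cell cannot be told apart.

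The promoters below show, for 5 of the stress programmes, a gene whose mRNA was lower in the lymphomas or, for Asns, split between them, and the letters by which the programme's factor is known to be recruited. Asns was picked by name. The others were picked among the called genes for a small p and for holding the motif, so they do not represent their lists. Each runs from 250 bases before to 50 bases after the RefSeq start (GRCm38.p6, printed in the sense of the gene), and capitals mark the motif found on either strand. Hspd1, the mitochondrial chaperonin HSP60, lies at chr1:55087883-55088182 on the minus strand, and its capitals hold a pair of overlapping heat shock elements (GAA, TTC and GAA with 2 letters between each). Asns lies at chr6:7693160-7693459, minus strand, with a C/EBP-ATF response element (TGATGNAA) at position -23 from the start. Hmgcs1, the cytosolic HMG-CoA synthase of the sterol pathway, lies at chr13:119690101-119690400, plus strand, with a sterol regulatory element (TCACNCCAC) at position -137. Ak4, a mitochondrial adenylate kinase, lies at chr4:101419453-101419752, plus strand, and its hypoxia response element (ACGTG) is read on both strands because it lies inside the palindrome CACGTG, which is also an E-box. Hsp90b1, the endoplasmic reticulum chaperone GRP94, lies at chr10:86705395-86705694, minus strand, and holds 2 endoplasmic reticulum stress elements (CCAAT and CCACG with 9 letters between).
Hspd1: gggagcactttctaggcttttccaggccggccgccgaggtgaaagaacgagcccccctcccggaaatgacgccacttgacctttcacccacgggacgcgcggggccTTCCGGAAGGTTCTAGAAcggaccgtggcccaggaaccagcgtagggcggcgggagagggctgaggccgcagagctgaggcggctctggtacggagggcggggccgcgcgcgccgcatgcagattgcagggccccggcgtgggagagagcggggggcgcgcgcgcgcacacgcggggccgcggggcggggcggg
Asns: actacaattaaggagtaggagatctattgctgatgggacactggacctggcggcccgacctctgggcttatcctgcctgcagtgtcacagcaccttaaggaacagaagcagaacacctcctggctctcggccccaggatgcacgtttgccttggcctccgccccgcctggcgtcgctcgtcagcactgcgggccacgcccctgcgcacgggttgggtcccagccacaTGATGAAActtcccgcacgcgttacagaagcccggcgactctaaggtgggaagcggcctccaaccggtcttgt
Hmgcs1: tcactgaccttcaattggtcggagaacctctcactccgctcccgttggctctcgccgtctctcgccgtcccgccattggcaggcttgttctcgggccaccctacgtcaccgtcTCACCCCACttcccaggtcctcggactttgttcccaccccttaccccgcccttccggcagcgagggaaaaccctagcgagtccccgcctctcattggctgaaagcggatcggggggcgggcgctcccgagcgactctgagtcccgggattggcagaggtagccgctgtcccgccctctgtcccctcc
Ak4: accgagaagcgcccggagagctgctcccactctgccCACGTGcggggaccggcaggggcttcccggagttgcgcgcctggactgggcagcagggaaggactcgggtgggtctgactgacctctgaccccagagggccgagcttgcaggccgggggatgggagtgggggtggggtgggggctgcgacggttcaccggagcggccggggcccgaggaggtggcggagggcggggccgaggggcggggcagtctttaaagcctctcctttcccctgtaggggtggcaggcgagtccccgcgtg
Hsp90b1: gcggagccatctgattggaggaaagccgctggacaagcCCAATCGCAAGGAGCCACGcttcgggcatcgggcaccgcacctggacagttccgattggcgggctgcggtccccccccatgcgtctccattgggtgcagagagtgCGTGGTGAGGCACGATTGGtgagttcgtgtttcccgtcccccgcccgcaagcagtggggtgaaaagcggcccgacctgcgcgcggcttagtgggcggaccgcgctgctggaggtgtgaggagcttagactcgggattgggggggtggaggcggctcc
A match is a description of these letters and shows no binding. Promoters were matched for 413 of the 529 stress genes and 252 of the 313 tumour-cell stress genes. A gene was counted when at least 1 of its promoters held the motif. Of 21 tumour-cell hypoxia genes 16 held ACGTG, against 21.8% of 27025 mouse genes with promoters of the same length. Of 29 unfolded protein response genes 9 held the endoplasmic reticulum stress element, against 0.137%. For NRF2 genes the antioxidant response element (TGAC and GCA with 3 letters between) was found in 2 of 24 genes, against 3.45%. For the heat shock, amino acid response and sterol lists fewer than 80% of members had a promoter, so their counts are incomplete. Their elements were found in 4 of 13, 6 of 23 and 1 of 21 genes with a promoter, and the 1 sterol gene is Hmgcs1. The heat shock element is in a promoter of 0.662% of all 27025 genes, the C/EBP-ATF element of 4.51% and the sterol element of 1.44%.

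Whether stress genes of the tumour cells differ between the lymphomas and cultures that share their leading segment, line 506 being the one that was injected, was asked by fitting both lymphomas as 1 arm of 2 against the 3 lines. Of the 313 tumour-cell stress genes, 180 (57.5%) were lower in the lymphomas, 33 (10.5%) were higher and 100 were not called (edgeR quasi-likelihood test, adjusted p under 0.05 over 15152 genes, of which 53.9% were called, 31.7% higher and 22.2% lower). Among all 6581 tumour-cell genes 43.2% were lower and 10.2% higher, so the share of stress genes that was lower stood above that of their class, and the share that was higher was about equal to it. Their median log2 fold change was -0.60, against -0.34 for the class. Both lymphomas were below all 3 lines for 208 stress genes (66.5%, class 55.3%), above them for 43 (13.7%, class 16.3%), and overlapped them for 62.

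The threshold on the lines favours genes that are lower in the lymphomas, a bias that the class shares. The other 9 lines set no threshold, but the genes compared with them are still those picked in the 3 lines. The 9 lines were grown the same way, so this bias can remain. Against them 91 of the 313 stress genes (29.1%) were lower in the lymphomas and 8 (2.56%) were higher, against 19.1% and 2.8% of tumour-cell genes. The median log2 difference was -0.54 for the stress genes and -0.32 for the class. Over all 16107 genes tested this comparison called 3498 genes (21.7%), but 914 without the vehicle lymphoma and 853 without the ASNase lymphoma. The comparison does not remove traits of line 506.

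The number of higher genes depended on the scaling, which moved all genes together. TMM factors (trimmed means of the log ratios between libraries) were computed over all genes, whose median log2 fold change was 0.11. With factors from tumour-cell genes only, that median moved to 0.48 and the class median to 0.03, and 126 stress genes (40.3%) were lower and 56 (17.9%) higher, against 20.7% and 25.3% of the class. Higher genes were then 30.8% of called stress genes and 55.0% of called class genes, compared with 15.5% and 19.1% in the reported fit. With library totals these shares were 25.1% and 41.8%. A fit of all 14 libraries, in which every line informs the spread, called 107 stress genes lower (34.2%, class 21.9%) and 6 higher (1.92%, class 2.19%). That fit ended the calls of Ak4, Aldh18a1, Atf4, Cdkn1a, Ddit4, Edem3, Fkbp5, Gadd45g, Hspa8, Nfe2l2, Nfkb1, Nr4a1, Psmb8, Rgs2 and Tap2 among the stress genes described, with adjusted p from 0.0577 (Aldh18a1) to 0.305 (Nfkb1). Without line 549, the line with the second set of segments, 175 were lower and 27 higher (55.9% and 8.63%, class 40.3% and 8.46%).

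**Figure D1:**
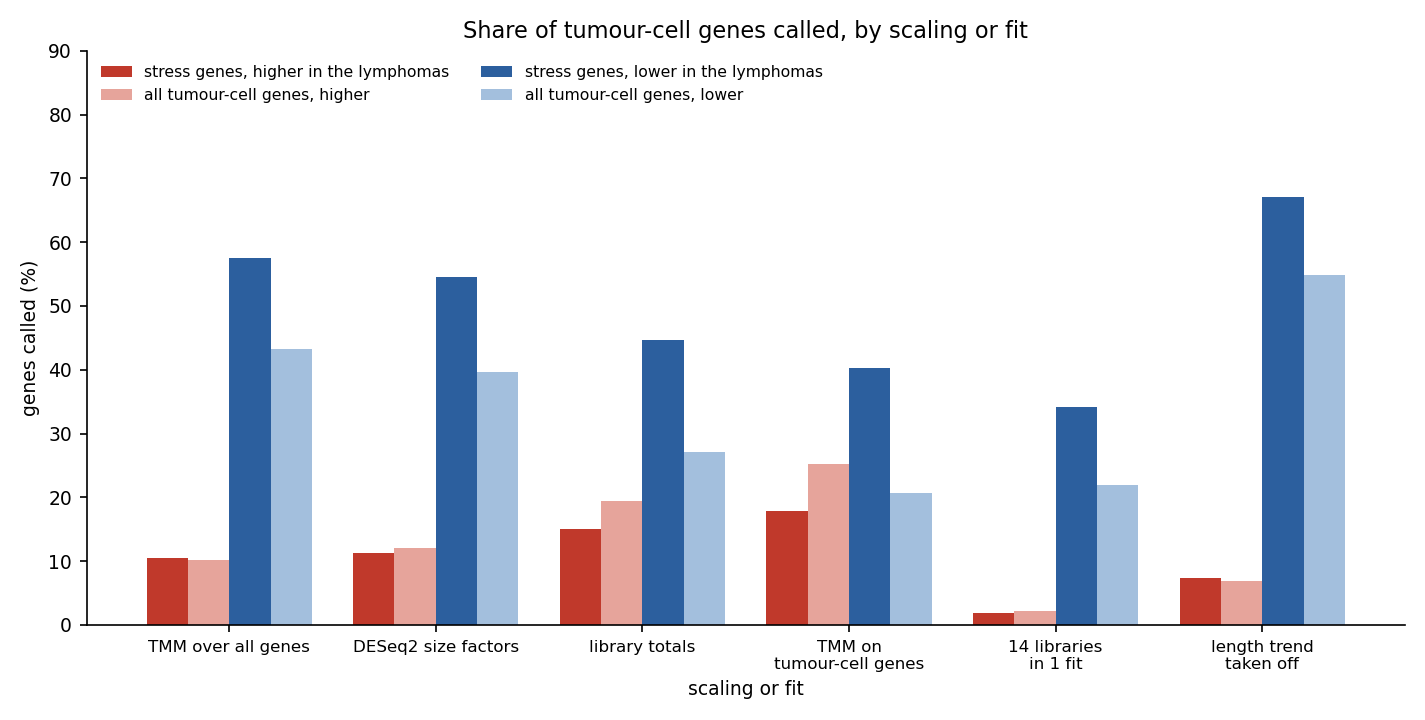
Percentage of genes called higher or lower in the lymphomas than in lines 506, 549 and 688 (y axis) for the 313 tumour-cell stress genes and all 6581 tumour-cell genes, under 6 scalings or fits (x axis). The share of stress genes called lower stands above that of the class under each of the 6, from 34.2% in the fit of 14 libraries to 67.1% with the length trend taken off.

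The differences varied with gene length. The median log2 fold change of tumour-cell genes was -0.44 in the fifth with the shortest exons and -0.22 in the fifth with the longest (the median exon lengths were 1474 and 9490 bases); the cause was not tested. With the trend taken off, 210 stress genes were lower (67.1%, class 54.8%) and 23 higher.

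**Figure D2:**
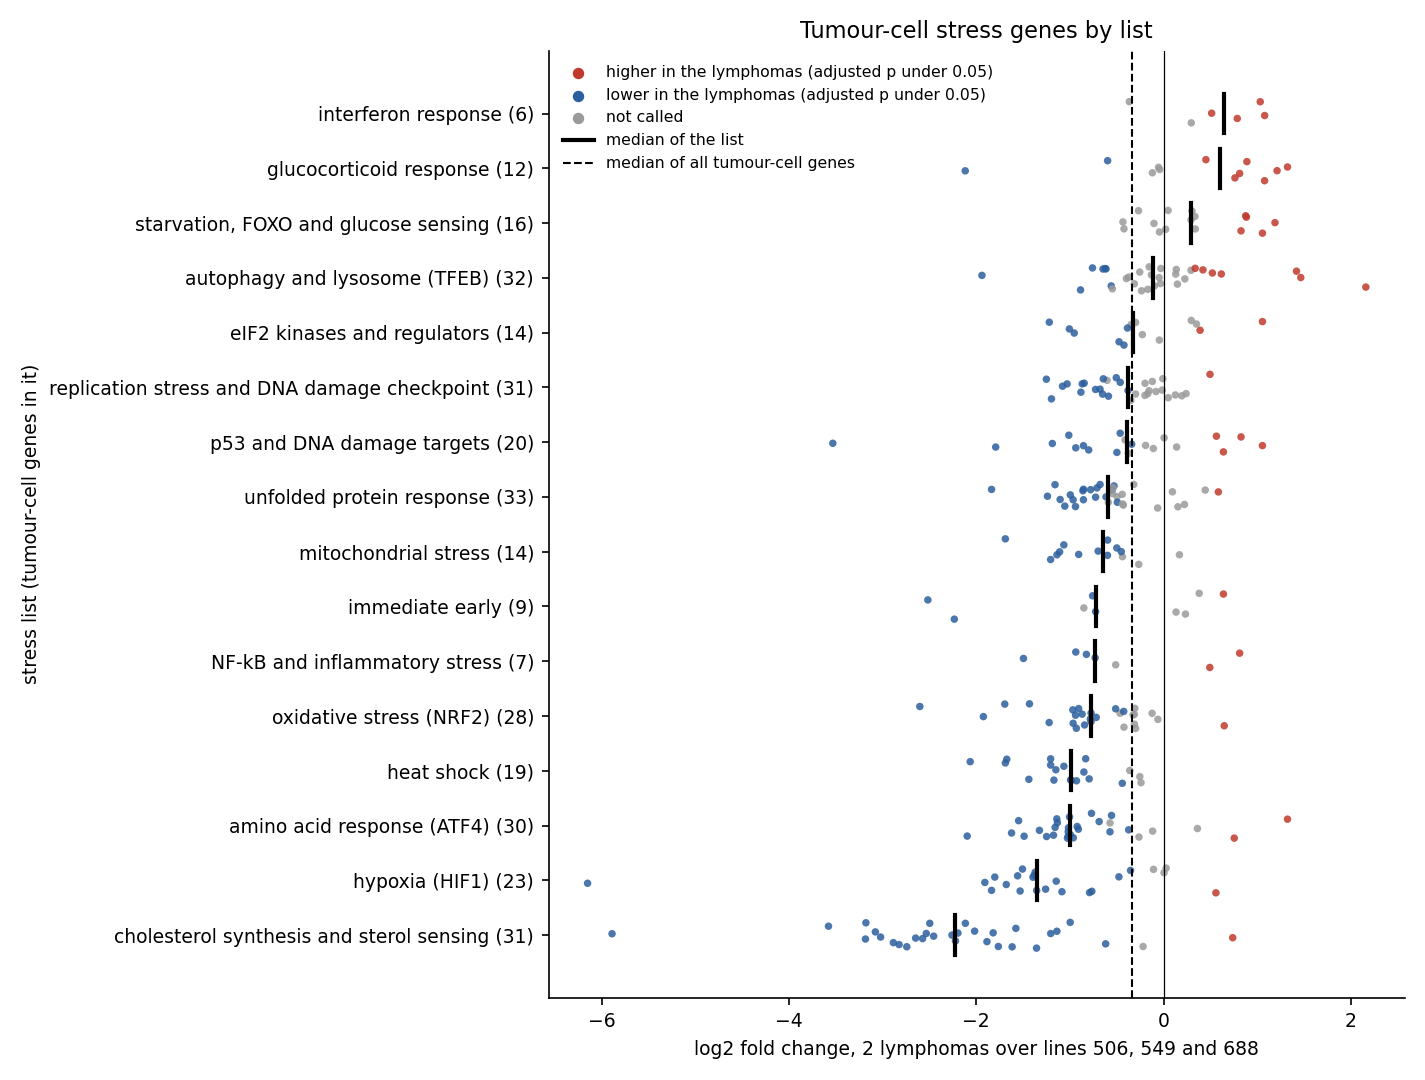
Log2 fold change of each tumour-cell stress gene, both lymphomas over lines 506, 549 and 688 (x axis), in the 16 lists (y axis, with the number of genes), where each point is a gene and the bar is the list median. List medians run from 0.65 for interferon response to -2.22 for cholesterol synthesis, and the dashed line marks the class median of -0.34.

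Genes of the amino acid response were lower in the lymphomas than in the lines. Of 30 tumour-cell genes of the ATF4 list 24 were lower and 2 higher, with a median log2 fold change of -0.999 (-0.63 with TMM on tumour-cell genes), and against the other 9 lines 11 were lower and 1 higher. Asns itself was not called. It had 74.6 CPM in the ASNase lymphoma and 27.8 CPM in the vehicle lymphoma, against 62.6, 114 and 51.7 CPM in lines 506, 549 and 688. The vehicle lymphoma lay below all 3 lines, while the ASNase lymphoma lay inside their range, above line 506 (log2 fold change -0.57 ± 0.46, SE; edgeR adjusted p = 0.331). Its value was -0.03 without the vehicle lymphoma and -1.45 without the ASNase lymphoma (edgeR adjusted p = 0.963 and 0.0526).

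Atf4, the factor itself, had 233 CPM in the ASNase lymphoma and 238 CPM in the vehicle lymphoma, against 374, 325 and 351 CPM in lines 506, 549 and 688. Both lymphomas were close together and below every one of the 3 lines (log2 fold change -0.57 ± 0.12; edgeR adjusted p = 0.0050), a call lost with TMM on tumour-cell genes (-0.20, adjusted p = 0.119). Mthfd2, a mitochondrial folate enzyme, had 57.5 and 65.3 CPM in the ASNase and vehicle lymphomas, against 190, 186 and 163 CPM in the 3 lines. Aldh18a1, which opens proline synthesis, had 109 and 99.5 CPM in the ASNase and vehicle lymphomas, against 278, 331 and 268 CPM in the lines. For both genes the groups did not overlap, with log2 fold changes of -1.55 ± 0.13 and -1.49 ± 0.14 (edgeR adjusted p = 3.1e-04 and 3.8e-04).

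The serine synthesis enzymes Phgdh, Psat1 and Psph, the aminoacyl-tRNA synthetases Eprs, Mars, Tars, Gars, Cars, Nars, Sars, Aars and Wars, and the amino acid carriers Slc7a1, Slc7a5, Slc38a2 and Slc1a4 were all among the 24 lower genes. Their log2 fold changes ran from -0.37 (Wars) to -1.62 (Psat1). Psat1 had 232 CPM in the ASNase lymphoma and 163 CPM in the vehicle lymphoma, against 631, 582 and 610 CPM in lines 506, 549 and 688. The largest fall of the list was that of Cth, which makes cysteine from cystathionine, with 8.84 and 5.28 CPM in the ASNase and vehicle lymphomas, against 23.9, 38.3 and 28.4 CPM in the lines (log2 fold change -2.10 ± 0.31; edgeR adjusted p = 0.0014).

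The higher pair of the list were Ddit4 and Slc1a5. Ddit4 encodes REDD1, an inhibitor of mTORC1 that glucocorticoids and hypoxia also induce. It had 109 CPM in the ASNase lymphoma and 134 CPM in the vehicle lymphoma, against 47.4, 39.8 and 58.0 CPM in lines 506, 549 and 688, with both lymphomas above all lines (log2 fold change 1.32 ± 0.18; edgeR adjusted p = 0.0011), but was not called against the other 9 lines (1.14 ± 0.42; edgeR adjusted p = 0.0798). Slc1a5, the glutamine carrier ASCT2, had 674 and 856 CPM in the ASNase and vehicle lymphomas, against 385, 495 and 479 CPM in the lines. It was also higher than in the other 9 lines (log2 difference 0.96 ± 0.18; edgeR adjusted p = 0.0049).

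Of the pro-apoptotic and feedback targets of ATF4, Ppp1r15a (GADD34) was lower, at 8.77 and 12.2 CPM in the ASNase and vehicle lymphomas, against 21.0, 23.5 and 30.5 CPM in the 3 lines (log2 fold change -1.25 ± 0.24; edgeR adjusted p = 0.0043). Ddit3, Trib3, Chac1 and Sesn2 lay under 20 CPM in the lines and were not called. Ddit3 (CHOP) had 5.48 and 7.64 CPM in the ASNase and vehicle lymphomas, against 2.23, 3.50 and 5.38 CPM in the 3 lines. Trib3, Chac1 and Sesn2 had edgeR adjusted p-values of 0.361, 0.346 and 0.332. Ddit3 passed the threshold without line 688 (log2 fold change 1.19, edgeR adjusted p = 0.0415) and with TMM on tumour-cell genes (1.19, 0.0442).

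**Figure D3:**
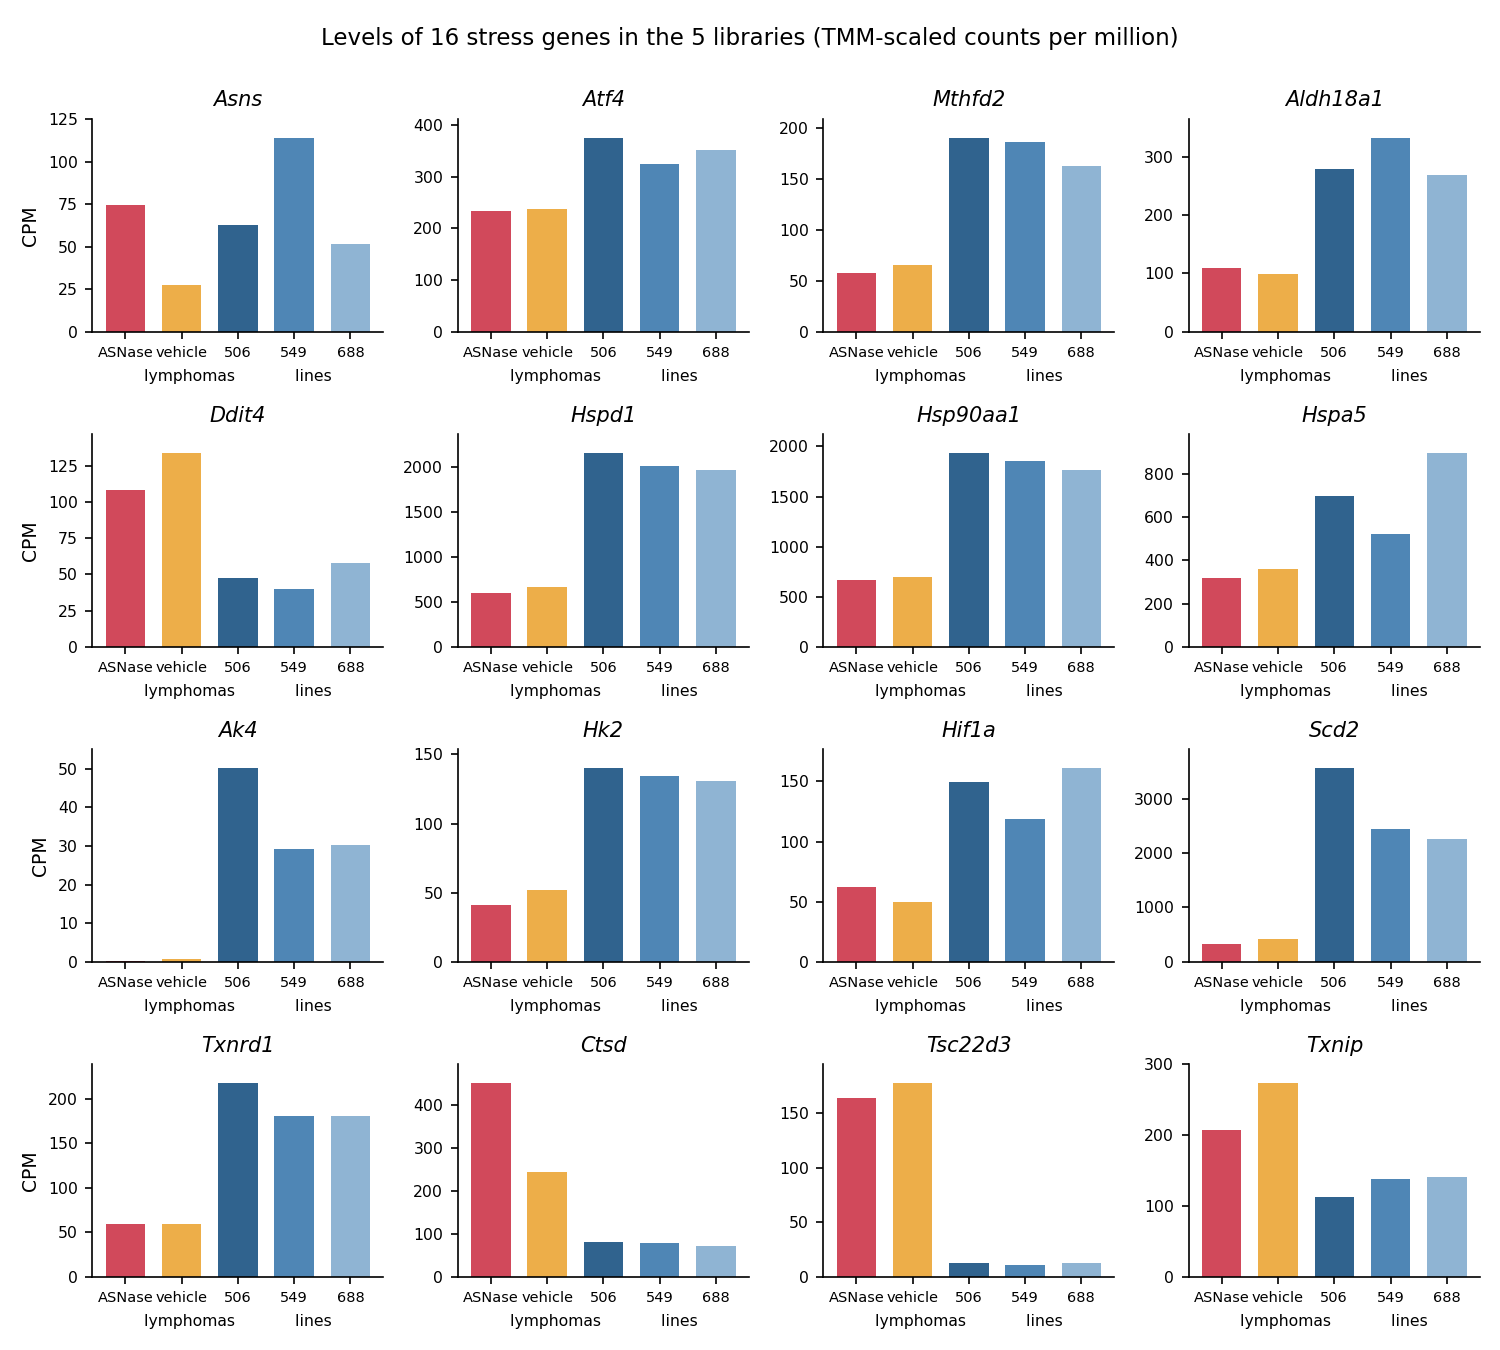
Level of 16 stress genes (y axis, CPM; 1 bar per library) in the ASNase lymphoma, the vehicle lymphoma and lines 506, 549 and 688 (x axis). Both lymphomas stand below the 3 lines for 11 genes, such as Scd2 and Ak4, above them for Ddit4, Ctsd, Tsc22d3 and Txnip, and on either side of line 506 for Asns.

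Upstream of ATF4, the list of eIF2 kinases and their regulators held 14 tumour-cell genes, of which 6 were lower and 2 higher (42.9% lower, against 43.2% of the class). With TMM on tumour-cell genes 3 were lower and 4 higher, and without the ASNase lymphoma 5 and 0; its median of -0.32 turned to 0.04 with TMM on tumour-cell genes. Eif2ak4, the GCN2 kinase that senses uncharged tRNA, had 63.6 CPM in the ASNase lymphoma and 57.4 CPM in the vehicle lymphoma, against 120, 106 and 125 CPM in lines 506, 549 and 688. Both lymphomas lay below the lines (log2 fold change -0.95 ± 0.13; edgeR adjusted p = 0.0011). Eif2s1, the eIF2 subunit that these kinases phosphorylate, was also lower (-1.22 ± 0.15; edgeR adjusted p = 8.1e-04). Sesn1, which restrains mTORC1 when leucine is short and is also a p53 target, had 101 and 82.6 CPM in the ASNase and vehicle lymphomas, against 34.7, 37.2 and 60.6 CPM in the lines, and was higher (1.06 ± 0.25; edgeR adjusted p = 0.0093).

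Heat shock genes were lower as a group, with 16 of 19 lower and 0 higher, a median log2 fold change of -0.99 (-0.63 with TMM on tumour-cell genes), and 12 lower than in the other 9 lines. Hspd1, whose heat shock elements are printed above, had 598 CPM in the ASNase lymphoma and 671 CPM in the vehicle lymphoma, against 2156, 2012 and 1970 CPM in lines 506, 549 and 688. Every lymphoma value was under every line value by a wide margin (log2 fold change -1.69 ± 0.13; edgeR adjusted p = 2.2e-04). Hsp90aa1, the inducible cytosolic HSP90, had 665 and 701 CPM in the ASNase and vehicle lymphomas, against 1931, 1859 and 1765 CPM in the lines (-1.44 ± 0.12; edgeR adjusted p = 2.8e-04). Hspa8, the constitutive cytosolic HSP70, had 959 and 1585 CPM in the ASNase and vehicle lymphomas, against 2456, 2298 and 2037 CPM in the lines, and its call (-0.83 ± 0.22; edgeR adjusted p = 0.0155) was lost with TMM on tumour-cell genes (-0.47, 0.0934).

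The lymphomas differed from each other in Hsph1, an HSP70 exchange factor, with 41.8 CPM in the ASNase lymphoma and 95.1 CPM in the vehicle lymphoma, 1 library each, both below the 263 to 314 CPM of the lines. Hsf1, the heat shock factor, was not called and overlapped the lines. The inducible Hspa1a and Hspa1b, near-identical copies whose counts are uncertain, were already low in culture, at 4.30 to 8.82 CPM and 7.65 to 15.6 CPM in the lines. They had 1.14 and 1.68 CPM in the ASNase lymphoma and 2.33 and 2.52 CPM in the vehicle lymphoma.

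The mitochondrial stress list followed the same direction, with 11 of 14 lower and 0 higher (median -0.65), and 6 lower and 1 higher with TMM on tumour-cell genes (-0.28). Besides Hspd1 and its partner Hspe1 it includes Hspa9, the mitochondrial HSP70, with 513 and 527 CPM in the ASNase and vehicle lymphomas, against 1237, 1203 and 1160 CPM in lines 506, 549 and 688. The groups did not overlap (log2 fold change -1.21 ± 0.11; edgeR adjusted p = 3.7e-04).

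In the unfolded protein response 19 of 33 genes were lower and 1 higher (57.6% lower, against 43.2% of the class), with a median of -0.59. With TMM on tumour-cell genes 10 were lower and 3 higher (median -0.22), against 20.7% and 25.3% of the class. Against the other 9 lines 1 of the 33 was lower, compared with 19.1% of the class. The list median there was -0.35 and the class median -0.32. Hspa5, the chaperone BiP that is the standard readout of the response, had 316 CPM in the ASNase lymphoma and 361 CPM in the vehicle lymphoma, against 694, 519 and 894 CPM in lines 506, 549 and 688. The lymphomas were below all 3 lines, which themselves spread widely (log2 fold change -1.05 ± 0.23; edgeR adjusted p = 0.0064), while against the other 9 lines the difference was not called (-0.58 ± 0.28; edgeR adjusted p = 0.163). Hsp90b1, shown above, had 472 and 579 CPM in the ASNase and vehicle lymphomas, against 1249, 943 and 1530 CPM in the 3 lines. Xbp1, the factor that IRE1 activates by splicing, overlapped the lines at 55.4 and 75.2 CPM in the ASNase and vehicle lymphomas.

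The gene of this list with the smallest p was Ero1l, the oxidase that forms disulphide bonds and is also a HIF1 target. It had 54.1 CPM in the ASNase lymphoma and 39.6 CPM in the vehicle lymphoma, against 172, 182 and 147 CPM in lines 506, 549 and 688. Both lymphomas were below the lines (log2 fold change -1.84 ± 0.18; edgeR adjusted p = 4.1e-04). Edem3, which trims glycans of misfolded proteins, was lower than in the 3 lines (-0.94 ± 0.12; edgeR adjusted p = 9.2e-04) but not than in the other 9 (0.0002 ± 0.54).

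Hypoxia genes had the lowest median of the lists after cholesterol synthesis. Of 23 tumour-cell genes 19 were lower and 1 higher, the median was -1.35 (-0.98 with TMM on tumour-cell genes), and 12 were lower and 0 higher than in the other 9 lines. Ak4 was nearly silent in the lymphomas, at 0.303 CPM (9 counts) in the ASNase lymphoma and 0.712 CPM (22 counts) in the vehicle lymphoma, against 50.1, 29.3 and 30.2 CPM in lines 506, 549 and 688. The groups were separated by far more than the spread of the lines (log2 fold change -6.15 ± 0.46; edgeR adjusted p = 2.1e-04). Among the other 9 lines, however, Ak4 ranged from 0 to 89.4 CPM, and the lymphomas did not differ from them by the test (edgeR adjusted p = 0.134).

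Hk2, the hexokinase of glycolytic cells, had 41.3 CPM in the ASNase lymphoma and 52.1 CPM in the vehicle lymphoma, against 140, 134 and 131 CPM in lines 506, 549 and 688 (log2 fold change -1.53 ± 0.14; edgeR adjusted p = 3.7e-04). Hif1a, the regulated subunit, had 61.9 and 50.0 CPM in the ASNase and vehicle lymphomas, against 150, 119 and 161 CPM in the lines (-1.35 ± 0.18; edgeR adjusted p = 9.3e-04). Both were also lower than in the other 9 lines (edgeR adjusted p = 0.0058 and 0.0016). The glycolytic genes of the list (Eno1, Aldoa, Pgk1, Ldha, Pkm, Tpi1) fell by 1.09 to 1.80 on the log2 scale, though several have near-identical copies that can divide their reads.

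Not every hypoxia gene fell. Vegfa, the vessel growth factor, lay at 30.2 CPM in the ASNase lymphoma and 47.0 CPM in the vehicle lymphoma, on either side of the 36.4 to 40.6 CPM of the lines. Pdk1 and Pfkfb3 were not called. Slc2a3, the glucose carrier GLUT3, was higher, at 50.8 and 49.9 CPM in the ASNase and vehicle lymphomas, against 34.3, 33.1 and 35.1 CPM in the lines (log2 fold change 0.56 ± 0.12; edgeR adjusted p = 0.0065).

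Cholesterol synthesis and sterol sensing had the lowest median of the 16 lists. Of 31 genes 29 were lower and 1 higher, with a median log2 fold change of -2.22 (-1.86 with TMM on tumour-cell genes), and 27 were lower than in the other 9 lines. Scd2, a desaturase that SREBP induces, had 328 CPM in the ASNase lymphoma and 418 CPM in the vehicle lymphoma, against 3559, 2445 and 2261 CPM in lines 506, 549 and 688 (-2.89 ± 0.25; edgeR adjusted p = 3.1e-04). Insig1, the sterol-regulated anchor of SCAP, had 37.1 and 53.2 CPM in the ASNase and vehicle lymphomas, against 382, 226 and 298 CPM in the lines (-2.74 ± 0.27; edgeR adjusted p = 4.2e-04). No lymphoma value of these genes came near a line value.

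Hmgcs1 had 27.0 CPM in the ASNase lymphoma and 54.4 CPM in the vehicle lymphoma, against 581, 230 and 295 CPM in lines 506, 549 and 688. The ASNase lymphoma was lower than the vehicle lymphoma for Hmgcs1, Sqle, Fdps and Fdft1 among others, and the list medians against the lines were -2.53 and -1.90; each treatment has 1 library, so this difference was not tested. Nr1h2, the sterol receptor LXR beta, was the higher gene of the list (0.74 ± 0.12; edgeR adjusted p = 0.0018).

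The oxidative stress list had 18 of 28 genes lower and 1 higher (median -0.77, -0.41 with TMM on tumour-cell genes). Against the other 9 lines 6 of the 28 were lower and 0 higher, where 19.1% of all tumour-cell genes were lower. The list median there was -0.70 and the class median -0.32. Txnrd1, the cytosolic thioredoxin reductase, had 59.8 CPM in the ASNase lymphoma and 59.1 CPM in the vehicle lymphoma, against 217, 181 and 180 CPM in lines 506, 549 and 688. Both lymphomas had nearly the same value, well below the lines (log2 fold change -1.70 ± 0.14; edgeR adjusted p = 2.6e-04) and below the other 9 lines (-1.68 ± 0.34; edgeR adjusted p = 0.0065). Prdx3, the mitochondrial peroxiredoxin, had 67.8 and 85.9 CPM in the ASNase and vehicle lymphomas, against 223, 202 and 198 CPM in the lines. Nfe2l2, which encodes NRF2, was lower (-0.77 ± 0.13; edgeR adjusted p = 0.0026), and Keap1, its inhibitor, was not called. The ferritin chains parted: Fth1 had 433 and 569 CPM in the ASNase and vehicle lymphomas, against 1543 to 2181 CPM in the lines, while Ftl1, which has many copies in the genome, had 362 and 332 CPM, against 200 to 238 CPM.

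Hmox1, haem oxygenase, went the other way but belongs to the genes between the thresholds. It had 128 CPM in the ASNase lymphoma and 73.0 CPM in the vehicle lymphoma, against 3.83, 2.09 and 3.64 CPM in lines 506, 549 and 688 (log2 fold change 4.98 ± 0.33; edgeR adjusted p = 1.4e-04). Macrophages are known to express it strongly. Of the 28 macrophage genes 22 were host-cell genes, 21 of them with counts in both lymphomas. These 22 summed to 780 CPM in the ASNase lymphoma and 399 CPM in the vehicle lymphoma, against 0.152 to 0.542 CPM in the lines, a contrast that their threshold favours. All 28 summed to 1366 and 691 CPM in the ASNase and vehicle lymphomas, against 32.7 to 45.2 CPM in the lines. The part of host cells in the rise of Hmox1 was not tested.

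Among p53 and DNA damage targets 10 of 20 genes were lower and 4 higher (median -0.39), near the class share of 43.2% lower. With TMM on tumour-cell genes 5 were lower and 5 higher (-0.03), and without either lymphoma 2 were higher. Gadd45g had 2.76 CPM in the ASNase lymphoma and 2.46 CPM in the vehicle lymphoma, against 33.2, 24.0 and 33.5 CPM in lines 506, 549 and 688 (log2 fold change -3.53 ± 0.25; edgeR adjusted p = 1.7e-04). The separation from the 3 lines was complete, but in the other 9 lines Gadd45g ranged from 0.611 to 19.0 CPM and the test did not call it (edgeR adjusted p = 0.576). Rps27l, a p53-induced ribosomal protein paralog, had 67.8 and 69.9 CPM in the ASNase and vehicle lymphomas, against 154, 162 and 155 CPM in the 3 lines. Cdkn1a, the p21 inhibitor of the cell cycle, lay near 0.5 CPM in the lines and had 6.76 and 7.86 CPM in the ASNase and vehicle lymphomas, against 0.474, 0.419 and 0.619 CPM (3.85 ± 0.34; edgeR adjusted p = 3.2e-04). It reached 12.8 CPM in the other 9 lines, above both lymphomas, and was not called against them (1.14 ± 1.29; edgeR adjusted p = 0.588).

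In the replication stress list 15 of 31 genes were lower and 1 higher (48.4% lower, against 43.2% of the class; median -0.38), and 8 lower and 4 higher with TMM on tumour-cell genes (-0.01). Rrm2, a subunit of ribonucleotide reductase, had 104 CPM in the ASNase lymphoma and 106 CPM in the vehicle lymphoma, against 266, 246 and 240 CPM in lines 506, 549 and 688 (log2 fold change -1.25 ± 0.11; edgeR adjusted p = 3.5e-04). Cdc25a, the phosphatase that drives entry into S phase, was lower than in the 3 lines (-1.20 ± 0.12; edgeR adjusted p = 4.9e-04) and than in the other 9 (-1.10 ± 0.13; edgeR adjusted p = 3.1e-04). General proliferation genes moved with it: of 26, 22 were lower and 1 higher than in the 3 lines (median -0.68), 11 lower and 3 higher with TMM on tumour-cell genes (-0.32), and 20 were lower than in the other 9. The part of growth rate in the falls of the stress lists was not tested.

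In the starvation, glucocorticoid, interferon and lysosome lists at least as many genes were higher as lower, to which TMM on tumour-cell genes adds the eIF2, p53 and immediate early lists. Of 16 tumour-cell genes of starvation, FOXO and glucose sensing 5 were higher and 0 lower (median 0.30), 9 and 0 with TMM on tumour-cell genes (0.67), and 4 and 2 without the ASNase lymphoma (0.19). Against the other 9 lines 2 were higher and 0 lower. Txnip, which responds to glucose through MondoA and curbs glucose uptake, had 207 CPM in the ASNase lymphoma and 273 CPM in the vehicle lymphoma, against 112, 138 and 141 CPM in lines 506, 549 and 688. Both lymphomas were above all 3 lines (log2 fold change 0.88 ± 0.16; edgeR adjusted p = 0.0035) and differed from the other 9 (0.87 ± 0.23; edgeR adjusted p = 0.0220). Mlxip, which encodes MondoA, was higher than in the 3 lines (0.89 ± 0.14; edgeR adjusted p = 0.0017) and than in the other 9 (0.68 ± 0.13; edgeR adjusted p = 0.0051).

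Of 12 tumour-cell genes of the glucocorticoid response 7 were higher and 2 lower (median 0.61, 0.98 with TMM on tumour-cell genes), but 4 were higher with a median of 0.32 when the ASNase lymphoma was left out. The fit of 14 libraries called 1 higher, and 1 was higher than in the other 9 lines. Of its 11 genes between the thresholds 9 were higher and 1 lower. Among all 6077 genes tested between the thresholds 31.6% were higher and 8.64% lower. Tsc22d3, which encodes GILZ, a direct target of the receptor, had 163 CPM in the ASNase lymphoma and 177 CPM in the vehicle lymphoma, against 13.0, 10.5 and 12.3 CPM in lines 506, 549 and 688. The lymphomas stood far above the lines (log2 fold change 3.83 ± 0.14; edgeR adjusted p = 2.2e-05), and also above the other 9, which reached 65.1 CPM (3.13 ± 0.63; edgeR adjusted p = 0.0066).

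Fkbp5, another target, had 253 CPM in the ASNase lymphoma and 113 CPM in the vehicle lymphoma, against 85.5, 111 and 63.1 CPM in lines 506, 549 and 688. The vehicle lymphoma was barely above line 549, and the call (log2 fold change 1.08 ± 0.35; edgeR adjusted p = 0.0332) was lost without the ASNase lymphoma (0.38, adjusted p = 0.326), without line 506 (1.07, 0.0805) and without line 688 (0.90, 0.0533). Nr3c1, the receptor, was not called. The lower pair were Rgs2, with 17.1 and 22.2 CPM in the ASNase and vehicle lymphomas, against 63.7, 86.5 and 106 CPM in the lines (-2.12 ± 0.25; edgeR adjusted p = 6.6e-04), and Klf9.

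Of the interferon list only 6 genes had 20 CPM in the lines, of which 4 were higher and 0 lower, against 10.2% of the class higher. The fit of 14 libraries called 0 of the 6 higher and 0 lower. All 17 genes between the thresholds were higher, against 31.6% of all genes tested there. Tap2, a peptide transporter of antigen presentation, had 57.2 CPM in the ASNase lymphoma and 83.0 CPM in the vehicle lymphoma, against 36.5, 31.3 and 31.6 CPM in lines 506, 549 and 688 (log2 fold change 1.08 ± 0.18; edgeR adjusted p = 0.0023). Psmb8, an immunoproteasome subunit, was higher (1.03 ± 0.23; edgeR adjusted p = 0.0074), but not when the vehicle lymphoma was left out (0.74, adjusted p = 0.0573). Neither differed from the other 9 lines by the test (edgeR adjusted p = 0.625 and 0.889). Host immune cells express these genes too, and their part was not tested.

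The autophagy and lysosome list had 7 of 32 genes higher and 7 lower, but 14 and 2 with TMM on tumour-cell genes, 10 and 3 with library totals, and 4 and 7 without the vehicle lymphoma. Its median of -0.11 turned to 0.26 with TMM on tumour-cell genes and to 0.15 with library totals, and 2 genes were higher and 1 lower than in the other 9 lines. The higher genes included 4 cathepsins, among them Ctsd and Ctsa. Ctsd had 450 CPM in the ASNase lymphoma and 244 CPM in the vehicle lymphoma, against 81.5, 79.0 and 72.3 CPM in lines 506, 549 and 688 (log2 fold change 2.16 ± 0.24; edgeR adjusted p = 5.7e-04). Both lymphomas were above the lines, the ASNase lymphoma by more, and 18 of 22 macrophage markers were higher there too; the part of macrophages was not tested. Ctsa had 125 and 129 CPM in the ASNase and vehicle lymphomas, against 42.6, 47.6 and 47.6 CPM in the lines (1.47 ± 0.12; edgeR adjusted p = 2.5e-04), with no such difference between the lymphomas. Tfeb, the factor of the programme, was higher (0.62 ± 0.13; edgeR adjusted p = 0.0061), and autophagy genes such as Map1lc3b, Becn1 and Atg7 were not called.

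Immediate early and NF-kB genes were few among the tumour-cell genes. Of 9 immediate early genes 4 were lower and 1 higher (44.4% and 11.1%, about the class shares), and 2 and 2 with TMM on tumour-cell genes. Of 7 NF-kB genes 4 were lower and 2 higher, and 3 and 2 with that scaling. Nr4a1, which antigen receptor signals induce, had 10.1 CPM in the ASNase lymphoma and 18.3 CPM in the vehicle lymphoma, against 71.0, 49.1 and 80.3 CPM in lines 506, 549 and 688 (log2 fold change -2.23 ± 0.32; edgeR adjusted p = 0.0013). Dusp5 and Nfkb1 were lower as well (-2.52 ± 0.43 and -0.94 ± 0.13; edgeR adjusted p = 0.0025 and 0.0011), and none of the 3 genes was called against the other 9 lines. Rela, the p65 subunit, had 50.5 and 69.7 CPM in the ASNase and vehicle lymphomas, against 107, 107 and 105 CPM in the lines. Nfkbia, the inhibitor that NF-kB induces, was higher (0.81 ± 0.16; edgeR adjusted p = 0.0044).

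Of all 136 stress genes between the thresholds 70 (51.5%) were higher and 10 (7.35%) lower, against 31.6% and 8.64% of the genes tested between the thresholds. The 10 lower genes were Egln3, Rasd1, Nlrp3, Hspa1b, Nr4a3, Hspa1a, Gabarapl1, Slc6a9, Gla and Bbc3. Genes at these levels in the lines can owe a rise to tumour cells or to host cells, which cannot be told apart here.

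The 80 host-cell stress genes summed to 263 CPM in the ASNase lymphoma and 274 CPM in the vehicle lymphoma, against 3.05, 4.23 and 3.02 CPM in lines 506, 549 and 688. Of these genes 75 had a count in both lymphomas, 1 had none in either, and 38 had no count in any of the 3 lines. In a lymphoma 16 reached 5 CPM and 4 reached 20 CPM, against 521 and 114 of the 10743 host-cell genes with a count in a lymphoma. The 18 interferon genes and 18 NF-kB and inflammatory genes were the largest groups.

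The 8 with the highest CPM, a scale not corrected for gene length, were Gpx3, Ctgf, Lox, Cyr61, Loxl2, Dusp6, Socs3 and Sod3. Gpx3, a secreted glutathione peroxidase, had 43.4 CPM in the ASNase lymphoma and 30.7 CPM in the vehicle lymphoma, with 1 count in the 3 lines together. Ctgf, a matrix-associated growth factor, had 38.6 and 15.0 CPM, Lox, which cross-links collagen, 36.1 and 14.0 CPM, and Cyr61, a matricellular protein, 11.8 and 32.7 CPM in the ASNase and vehicle lymphomas, with no count in the lines. Ctgf and Lox were thus higher in the ASNase lymphoma and Cyr61 in the vehicle lymphoma, 1 library each. Over the 80 genes 26 were higher in the ASNase lymphoma and 53 in the vehicle lymphoma, a difference that was not tested.

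**Figure D4:**
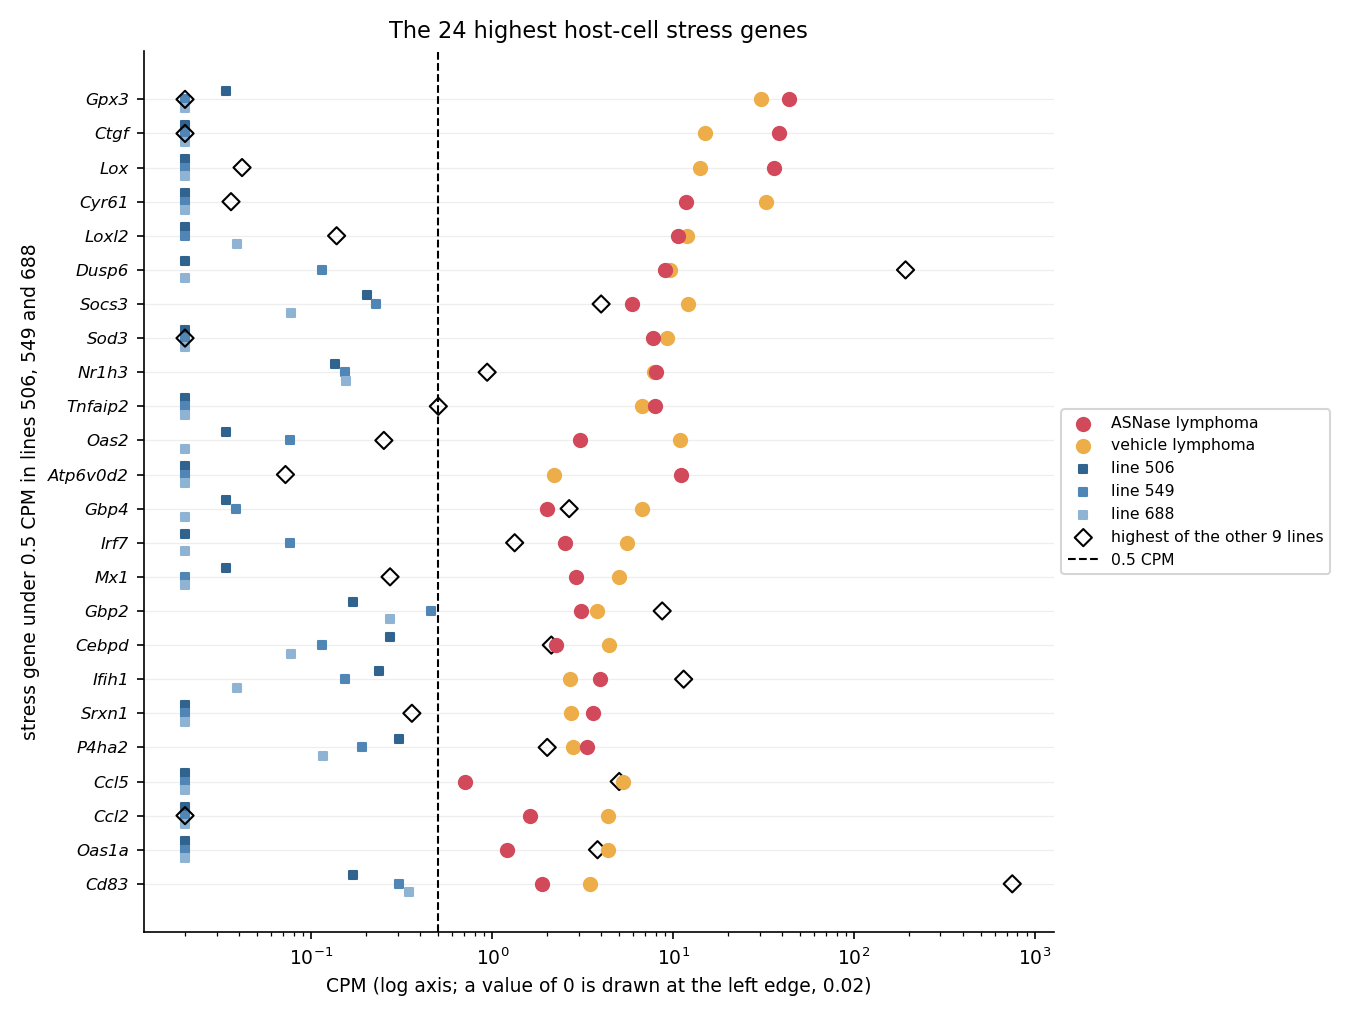
CPM (x axis, log scale; a value of 0 is drawn at 0.02) of the 24 host-cell stress genes with the highest mean CPM in the lymphomas (y axis), in the ASNase and vehicle lymphomas (circles), lines 506, 549 and 688 (squares) and the highest of the other 9 lines (diamonds). Gpx3, Ctgf and Lox are at or near 0 in every line, whereas Dusp6 and Cd83 reach 193 and 749 CPM in another line.

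The name of the class goes further than the data do. Of the 80 genes 41 reached 0.5 CPM, 19 reached 5 CPM and 10 reached 20 CPM in at least 1 of the other 9 cultured lines, which hold no host tissue. Of the 10743 host-cell genes with a count in a lymphoma, 2089, 544 and 233 reached these levels there. Cd83 reached 749 CPM and Tnf 96.2 CPM in line 524, Dusp6 reached 193 CPM in line 504, and Stc2, an ATF4 target, 42.6 CPM in line 136. For such genes silence in 3 related lines does not show that malignant B cells cannot express them. Gpx3, Ctgf and Sod3 had no count in any of the other 9 lines.

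The markers of other cell types were summed over the genes of each list. The lists differ in their number of genes, so a sum does not measure the fraction of host cells. All 30 genes of the fibroblast and reticular stroma list were under 0.5 CPM in the 3 lines, and together they had 3412 CPM in the ASNase lymphoma and 1675 CPM in the vehicle lymphoma, against 0.271 to 0.643 CPM in the lines. Col1a1, a chain of type I collagen, had 606 CPM in the ASNase lymphoma and 275 CPM in the vehicle lymphoma and no count in the lines. Of the fibroblast and reticular stroma genes 22 were higher in the ASNase lymphoma and 8 in the vehicle lymphoma, among the 8 the reticular chemokines Ccl21a (20.3 and 67.7 CPM in the ASNase and vehicle lymphomas) and Cxcl12 (33.4 and 50.6 CPM). Of the 22 macrophage genes 18 were higher in the ASNase lymphoma and 3 in the vehicle lymphoma, Marco among the 3. Over the host-cell genes of their list, T cell markers summed to 19.4 and 89.97 CPM in the ASNase and vehicle lymphomas. Endothelial markers summed to 133 and 260 CPM and plasma cell markers to 4.37 and 40.3 CPM, all higher in the vehicle lymphoma. Ighg2c alone gave 0.538 and 20.7 CPM of the plasma cell sums. With all genes of the lists, the sums were 86.9 and 178 CPM for T cell and 311 and 507 CPM for endothelial genes. For plasma cell genes they were 697 and 780 CPM. Their values rest on 1 library each, and no difference between the lymphomas was tested.

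**Figure D5:**
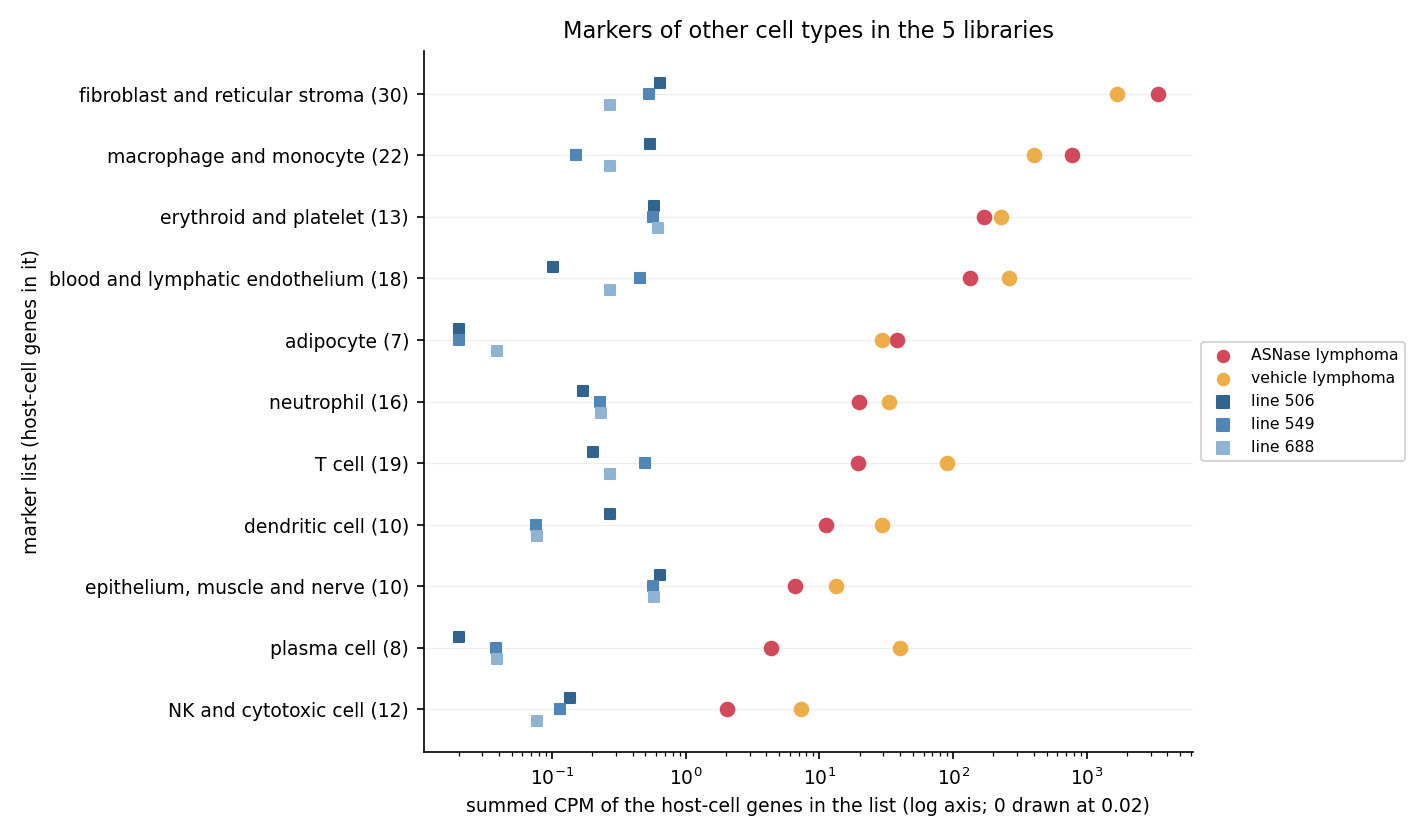
Summed CPM (x axis, log scale; a sum of 0 is drawn at 0.02) of the host-cell genes in each of 11 marker lists (y axis, with the number of genes) in the ASNase and vehicle lymphomas (circles) and lines 506, 549 and 688 (squares). Every sum is higher in both lymphomas than in the lines. The sums run from 3412 and 1675 CPM for the fibroblast list to 2.05 and 7.31 CPM for the NK list. Only genes under 0.5 CPM in the 3 lines enter a sum, which favours this direction. With all genes of a list, plasma cell genes had 697 and 780 CPM, against 846 to 969 CPM in the lines. Dendritic cell genes then had 74.7 and 133 CPM, against 123 to 199 CPM, and the other lists stayed higher.

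Set side by side, the lymphomas stood about as far from the lines. The median log2 difference of the 313 tumour-cell stress genes from the mean of the 3 lines was -0.65 in the ASNase lymphoma and -0.58 in the vehicle lymphoma, against class medians of -0.34 in both. The ATF4 list lay at -0.97 in the ASNase lymphoma and -0.997 in the vehicle lymphoma, heat shock at -1.23 and -0.91, hypoxia at -1.40 and -1.14, and glucocorticoid response at 0.65 and 0.34. Both sets of differences use the same lines, and with 1 library per treatment no difference between them was tested.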

How the data were processed

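RNA of 14 samples was sequenced as stranded mRNA libraries, paired-end on a NextSeq, per the labels' protocols. The deposited table holds raw read counts per gene for 46959 mouse genes and 100 spike-in or phage entries, which were left out. The submitters' processing notes name STAR 2.4.0, featureCounts, Subread 1.5.0-p3 and the builds mm10 and GRCm38; strand setting and treatment of multi-mapping reads are not stated in the sources used, so counts of genes with near-identical copies or overlapping neighbours (Eno1, Aldoa, Ldha, Tpi1, Fth1, Ftl1, Hba-a1, H2-Q4, Trp53) are uncertain. All 14 count columns matched a sample by name, and 0 were unmatched.

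Counts were scaled by TMM factors over all 14 libraries (edgeR 4.0.16, limma 3.58.1, R 4.3.3) and given as CPM, which is not corrected for gene length. The quasi-likelihood test compared both lymphomas as 1 arm with the 3 lines (15152 genes after the low-count filter, 3 residual degrees of freedom) and with the other 9 lines (16107 genes, 9 residual degrees of freedom). Values after ± are standard errors, and p-values were adjusted by Benjamini-Hochberg over all genes tested. The lines' samples are labelled as separate, but the 3 lines share their leading segments and had rank correlations of 0.986 to 0.991. The p-values therefore measure the spread between these samples, and may not measure that between independent lines, which was not tested. The test against the 3 lines called 8173 genes, and the fit of all 14 libraries, informed by every line, called 3717. Differences of 1 lymphoma from the lines or from the other lymphoma use log2 CPM with a prior count of 2. Fold changes of a fit come from edgeR and not from these log2 CPM values. A count of 3, the floor for a zero, is 0.0894 to 0.124 CPM, and floors cover counting error only. DESeq2 1.42.0, other scalings, filters, thresholds and leave-one-out fits were the alternatives. The test was also run on simulated data, and that outcome is not reported here. Figures and motif searches used Python 3.11.15 and matplotlib 3.10.9.

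The members and lists were chosen with earlier results of these data known. In each list the 2 called tumour-cell genes with the smallest p were named, with 17 fixed genes such as Asns and Ddit3, the 8 host-cell stress genes with the highest CPM, the 8 largest rises and falls of the tumour-cell class, leading host markers, and the genes nearest the thresholds. Other genes named were chosen after their values were seen. Some genes that this rule names are not reported here.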

Additional observations from a re-analysis of the deposited data

Results flagged for a closer look

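Among 42 named tumour-cell stress genes, 9 had a line among the other 9 far from the rest. The genes were scanned in the same 9 lines and are not independent, so the number due to chance is not known. The highest value stood apart for Mthfd2 (361 CPM in line 309), Atf4 (550 CPM in line 309), Ero1l (189 CPM in line 115) and Fkbp5 (239 CPM in line 504). In line 524 it stood apart for Nr4a1 (501 CPM), Nfkb1 (684 CPM), Hspa5 (828 CPM), Nfe2l2 (136 CPM) and Ppp1r15a (53.8 CPM). These lines widen the spread against which the lymphomas were set in the comparison with the other 9 lines.

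For 10 of the 313 tumour-cell stress genes the lymphomas lay on opposite sides of all 3 lines, a difference of 1 library against 1 that was not tested. The ASNase lymphoma was above and the vehicle lymphoma below the lines for Rictor (log2 difference, ASNase minus vehicle, 0.87), Brca2 (0.69), Nr3c1 (0.65) and Brca1 (0.54). The ASNase lymphoma was below and the vehicle lymphoma above the lines for Rad9a (-0.66), Vegfa (-0.64), Foxo4 (-0.48), Cebpg (-0.45), H2afx (-0.38) and Wipi2 (-0.32).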

How the results depend on the processing

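The excess of lower stress genes over the class kept its direction under every scaling, fit, threshold and omission tried. Of 720 values (60 named genes under each alternative), 687 kept direction and side of the threshold, 30 lost their call, 24 of them in the fit of all 14 libraries (among them, outside the stress genes, Ahnak, Cd74, H2-Q4, Irf8, Sema4g, Tgfb2, Tgfb3 and Trib2), 2 gained one and 1 reversed: Sesn2, never called, had a log2 fold change of -0.014 without the vehicle lymphoma, against 0.64 without the ASNase lymphoma. The number of higher stress genes, 33 as reported, was 56 with TMM on tumour-cell genes, 6 in the fit of all 14 libraries, 20 with a threshold of 50 CPM and 52 with a mean of 20 CPM over the 5 libraries. That fit called 3717 genes in all, of which 107 were lower stress genes. Leaving out each library gave 6491 to 7700 called genes, 23 to 29 higher and 150 to 182 lower stress genes. Against the other 9 lines, leaving out a lymphoma gave 853 to 914 called genes, against 3498 with both. The median of the stress genes moved to -0.37 in the ASNase lymphoma and -0.35 in the vehicle lymphoma with library totals, to -0.27 and -0.22 with TMM on tumour-cell genes, and to -0.81 and -0.74 with the length trend taken off. In each of these cases the cause was not tested. No paired analysis was possible because each lymphoma treatment has 1 library and the labels give no replicate numbers shared between groups.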

Other observations

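Outside the stress lists, the largest called rises among tumour-cell genes included those of Cd74, Apoe, Atp2a3, H2-Q4, Trib2, Irf8 and Ahnak. Cd74, the invariant chain of MHC class II, had 1001 CPM in the ASNase lymphoma and 1690 CPM in the vehicle lymphoma, against 137, 20.4 and 153 CPM in lines 506, 549 and 688 (log2 fold change 3.70 ± 0.72; edgeR adjusted p = 0.0043), but was not called against the other 9 lines (edgeR adjusted p = 0.792). Apoe, a lipid carrier that macrophages also express, had 374 and 199.5 CPM in the ASNase and vehicle lymphomas, against 20.6, 36.5 and 28.6 CPM in the 3 lines, and was also higher than in the other 9 lines (3.32 ± 0.31; edgeR adjusted p = 4.9e-05). Ahnak, a large scaffold protein, had 1019 and 1249 CPM in the ASNase and vehicle lymphomas, against 293, 250 and 289 CPM in the 3 lines. Atp2a3, a calcium pump of the endoplasmic reticulum, Trib2, Irf8 and H2-Q4, an MHC class I gene with close copies, rose by 2.05 to 2.49 on the log2 scale, but none of these 4 was called against the other 9 lines (edgeR adjusted p = 0.113 for Atp2a3, 0.456 for Trib2, 0.987 for Irf8 and 0.0813 for H2-Q4).

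The largest called falls outside those already described included those of Fads2, Tgfb3, Tgfb2, Sema4g, 2900026A02Rik, Gm13502 and Ptger4. Fads2, a fatty acid desaturase on the sterol list, had 0.471 CPM in the ASNase lymphoma and 2.14 CPM in the vehicle lymphoma, against 132, 52.1 and 50.1 CPM in lines 506, 549 and 688 (log2 fold change -5.89 ± 0.75; edgeR adjusted p = 8.6e-04). Tgfb2 had 4.37 and 1.62 CPM in the ASNase and vehicle lymphomas, against 66.8, 41.3 and 74.8 CPM in the lines, and Tgfb3 had 1.75 and 1.59 CPM, against 44.8, 21.6 and 47.4 CPM. Ptger4, a prostaglandin E2 receptor, had 2.79 and 2.82 CPM in the ASNase and vehicle lymphomas, against 43.0, 30.04 and 45.2 CPM in the lines. Neither TGF-beta gene nor Ptger4 was called against the other 9 lines (edgeR adjusted p = 0.248 for Tgfb2, 0.305 for Tgfb3 and 0.0898 for Ptger4).

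Markers of host cell types differed between the lymphomas in both directions. Trbc2, a T cell receptor constant gene, had 1.01 CPM in the ASNase lymphoma and 10.1 CPM in the vehicle lymphoma. Ighg2c, a switched immunoglobulin constant gene, had 0.538 and 20.7 CPM, and Col3a1, a collagen chain, had 850 and 266 CPM in the ASNase and vehicle lymphomas. With 1 library per treatment these differences were not tested.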
